A study of Mus musculus with 24 samples.

Results

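The 10 genes described here carry fatty acids into adipocytes, attach them to coenzyme A or pass them into mitochondria, and were followed by ribosome profiling and RNA-seq. They were the intracellular carriers Fabp4 and Fabp5, the surface and lipoprotein genes Cd36, Lpl and Slc27a1, the acyl-CoA synthetase Acsl1, and the carnitine shuttle genes Cpt1a, Slc25a20, Cpt2 and Crat. The genes were named by their roles, and a gene was kept when it had a value above 0 in all 24 libraries. All 10 of the 10 named genes passed, among 5035 such genes of the 22418 in the deposited table. The rule used no measured change, but the genes were chosen with earlier results of these data known.

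Primary cells of C57BL/6 mice were taken from the stromal vascular fraction of interscapular brown fat (brown lineage) and of inguinal white fat (white lineage). They were studied as preadipocytes at day 0 and as adipocytes at day 5, after induction with insulin, dexamethasone, IBMX and rosiglitazone, from mice 2 to 3 weeks of age by the study's methods. Interscapular BAT and epididymal eWAT came from C57BL/6 mice aged 6 weeks, with 3 mice pooled for each replicate by the study's methods. The labels give a pool of 3 for only some of the tissue libraries, and also for some white day 0 libraries. By the study's methods both tissues were taken from the same male mice and each pool was divided between the assays, but the labels do not tie the replicate numbers to the pools, and the tests treat the libraries as unpaired. Each of the 6 groups had 2 libraries of ribosome-protected fragments (RPF) and 2 of RNA. The labels do not say whether the duplicates of a culture were separate cultures, so p-values measure only the spread between these libraries. The white cultures are subcutaneous and eWAT is visceral, so depot and setting cannot be told apart where the white cultures are set against eWAT. The column names place the RPF libraries of tissues on lane 2 and those of cultures on lane 3, so lane and setting cannot be told apart for RPF.

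As background, adipocytes take up fatty acids that lipoprotein lipase releases from circulating triglyceride, bind them in the cytosol to carrier proteins and activate them to acyl-CoA. Acyl-CoA is either esterified into stored triglyceride or, for oxidation, exchanged onto carnitine at the outer mitochondrial membrane by carnitine palmitoyltransferase 1. Acylcarnitine then crosses the inner membrane through Slc25a20 and is turned back into acyl-CoA by Cpt2. White fat is known mainly for storage and brown fat for oxidation and heat. Cpt1b, the muscle-type carnitine palmitoyltransferase 1, was not analysed here, because it had no value in some libraries.

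Promoter windows are shown for the shuttle genes that parted between the tissues and for Cd36, which rose from a low RNA level in both cultures. They are RefSeq windows of GRCm38.p6, from 250 bases before to 50 bases after the annotated start, on the strand of the gene. Of the 10 genes, 6 had windows, 9 in all; Fabp4, Fabp5, Lpl and Crat had none. Capitals mark the GC box, GGGCGG on either strand.
Cpt1a, chr19:3323051-3323350, plus strand: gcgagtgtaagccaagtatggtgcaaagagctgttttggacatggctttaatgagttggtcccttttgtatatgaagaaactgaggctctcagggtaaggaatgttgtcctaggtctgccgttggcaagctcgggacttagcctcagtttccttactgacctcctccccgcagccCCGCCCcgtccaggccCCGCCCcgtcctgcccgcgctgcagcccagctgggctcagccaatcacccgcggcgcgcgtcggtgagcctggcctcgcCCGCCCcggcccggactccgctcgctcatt
Slc25a20, chr9:108661886-108662185, plus strand: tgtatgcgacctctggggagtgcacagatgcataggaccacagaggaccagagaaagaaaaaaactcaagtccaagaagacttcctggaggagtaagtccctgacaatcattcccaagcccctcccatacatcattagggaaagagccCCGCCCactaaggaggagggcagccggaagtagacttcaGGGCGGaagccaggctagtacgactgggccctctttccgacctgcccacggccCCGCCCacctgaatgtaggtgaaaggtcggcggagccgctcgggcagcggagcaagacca
Cpt2, chr4:107923540-107923839, minus strand: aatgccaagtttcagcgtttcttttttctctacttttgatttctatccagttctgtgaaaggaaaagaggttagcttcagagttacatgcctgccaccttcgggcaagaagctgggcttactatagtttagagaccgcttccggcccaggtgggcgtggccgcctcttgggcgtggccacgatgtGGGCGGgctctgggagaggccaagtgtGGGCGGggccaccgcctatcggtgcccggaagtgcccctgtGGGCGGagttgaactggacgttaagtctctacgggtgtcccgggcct
Cd36, chr5:17835847-17836146, minus strand: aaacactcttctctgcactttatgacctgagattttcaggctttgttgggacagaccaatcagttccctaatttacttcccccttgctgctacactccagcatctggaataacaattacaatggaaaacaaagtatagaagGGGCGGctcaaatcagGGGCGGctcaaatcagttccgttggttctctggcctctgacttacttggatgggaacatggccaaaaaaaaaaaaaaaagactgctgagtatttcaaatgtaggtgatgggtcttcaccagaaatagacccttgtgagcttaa

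The 3 shuttle windows each held 3 GC boxes, and the Cd36 window held 2. The window of Cpt1a had a GC content of 62.3%, those of Slc25a20 and Cpt2 had 58.0% and 57.3%, and that of Cd36 had 43.0%, against a median of 52.7% over 32851 windows. A GC box stood in 7 of the 9 member windows and in 35.7% of all windows. CCAAT on either strand stood in 5 of the 9 and in 37.4% of all, and AGGTCA on either strand in 2 of the 9 (Cpt1a and Cd36) and in 16.3% of all. TATAAA on either strand stood in 0 of the 9 and in 13.6% of all windows. These are matches of letters, and no binding was measured.

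The level of a gene was given in RPKM, its reads divided by coding length and by the mapped reads of the library, and its translational efficiency (Eff) was the RPF RPKM over the RNA RPKM. Recovered from RPKM, the reads on coding sequence ranged from 217395 to 1765714 over the RPF libraries and from 3757578 to 12307821 over those of RNA. The 10 genes together took 2.38 to 4.44% of the RPF reads in each day 5 and tissue library, and 0.373 to 0.751% at day 0. Fabp4 had the highest percentile, 99.98, among the levels of all 5035 genes in both assays in each day 5 and tissue group, whereas Cpt1a RNA stood at the 8.64 percentile in brown day 5 and the 47.7 percentile in eWAT. The lowest RPF values rested on few reads: Cpt1a had 6 in a white day 5 library, and Slc27a1 had 5 and 7 and Slc25a20 had 7 and 8 at brown day 0. Differences are on the log2 scale with the standard error (SE) of the limma fit, which shares the spread over all groups of an assay, and a gene passed at an adjusted p under 0.05 over 5035 genes. With 28-base windows of coding sequence, 85.6% of those of Fabp5 also occurred in transcripts of other genes, the leading 3 of them processed pseudogenes, against 0.965% for Acsl1 and 0% for the other 8 genes. The counting of Fabp5 is therefore uncertain.

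**Figure D1:**
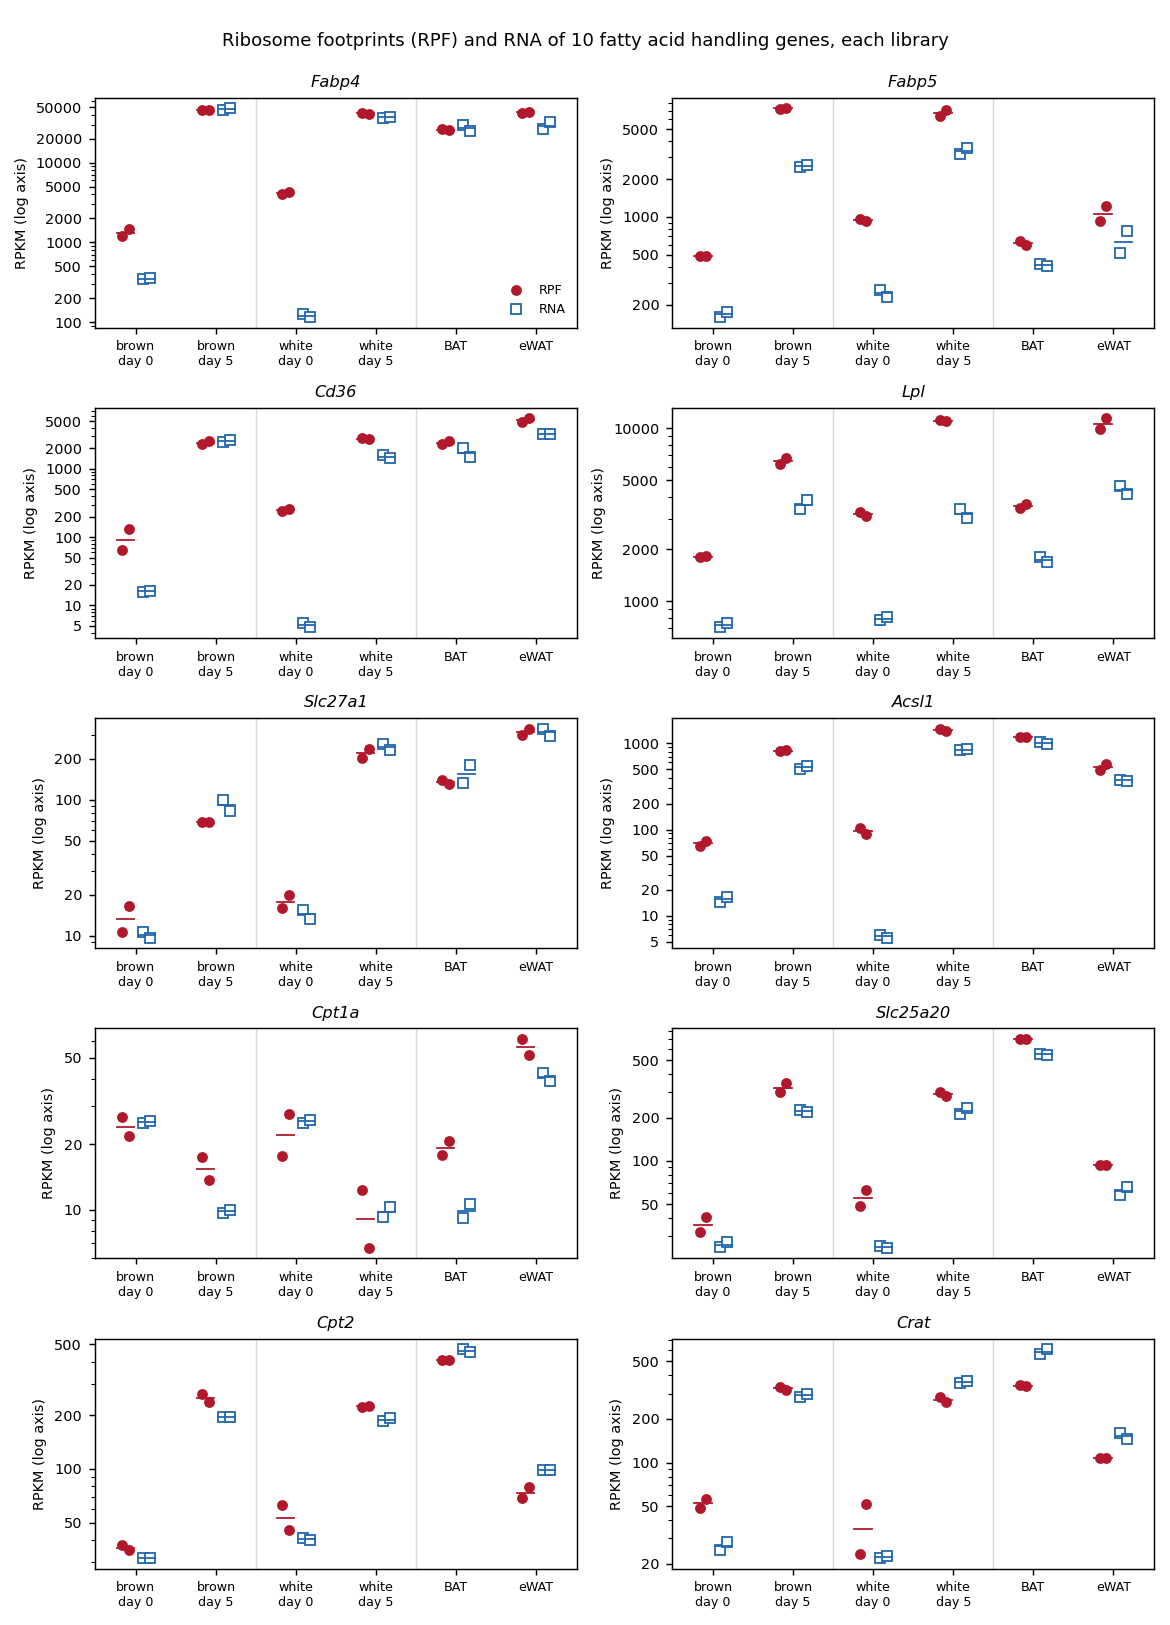
RPKM on a log axis for each gene in each of the 6 groups, with filled circles for the 2 RPF libraries, open squares for the 2 RNA libraries and short lines for the geometric means. Every gene except Cpt1a is higher at day 5 than at day 0 in both lineages, and Slc25a20, Cpt2 and Crat are highest in BAT.

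Fabp4, the main fatty acid carrier of adipocytes, lies on the minus strand at chr3:10204088-10208576 (GRCm38). Fabp4 RPF stood, in RPKM, at 1192 and 1479 in brown day 0 and 45706 and 46295 in brown day 5, 4104 and 4280.2 in white day 0 and 42339.7 and 40986 in white day 5, 26355 and 25601 in BAT, and 42436 and 43706 in eWAT tissue. No groups overlapped in RPF, with brown day 5 highest and brown day 0 lowest. Fabp4 RNA, also in RPKM, came to 345 and 358, 45249.7 and 48495, 127 and 115, 36578 and 37660.3, 29518 and 24958 and 26435 and 32249 in the same order of groups. In RNA, eWAT and BAT overlapped, and white day 0 was lowest, below brown day 0, the reverse of the RPF order.

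Fabp5, the carrier also known from skin and macrophages, lies on the plus strand at chr3:10012548-10016607. Fabp5 RPF stood, in RPKM, at 486 and 486 in brown day 0 and 7238 and 7349 in brown day 5, 956 and 925 in white day 0 and 6370.0 and 7090.5 in white day 5, 644 and 604 in BAT, and 933 and 1215 in eWAT tissue. Both tissues thus stood far below the day 5 cultures, and eWAT overlapped white day 0. Fabp5 RNA, also in RPKM, came to 159 and 177, 2483 and 2601, 262 and 232, 3179 and 3559, 421 and 410.4 and 514 and 769 in that order, with no overlap between groups. Fabp4 in eWAT, by contrast, lay within the range of the day 5 cultures in RPF. No comparison of culture with tissue was tested for either carrier.

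Cd36, a scavenger receptor that takes up long-chain fatty acids, lies on the minus strand at chr5:17781690-17888801. Cd36 RPF stood, in RPKM, at 64.0 and 133 in brown day 0 and 2313 and 2522 in brown day 5, 242 and 255 in white day 0 and 2846 and 2689 in white day 5, 2304 and 2531 in BAT, and 4803 and 5490.2 in eWAT tissue. Cd36 RNA, also in RPKM, came to 15.9 and 16.2, 2435 and 2602, 5.50 and 4.76, 1576 and 1452, 2006 and 1474 and 3269 and 3286 in that order. It was highest in eWAT in both assays. Brown day 5 overlapped BAT in RPF, and white day 5 overlapped BAT in RNA.

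Lpl, the lipase that frees fatty acids from lipoproteins at the capillary wall, lies on the plus strand at chr8:68880491-68907448. Lpl RPF stood, in RPKM, at 1793 and 1828 in brown day 0 and 6266 and 6729 in brown day 5, 3264 and 3131 in white day 0 and 11120.0 and 11063 in white day 5, 3464 and 3656 in BAT, and 9953 and 11435 in eWAT tissue. Lpl RNA, also in RPKM, came to 706 and 753, 3397 and 3833, 775 and 814, 3404 and 3041, 1795 and 1683 and 4626 and 4181 in that order. White day 5 and eWAT overlapped at the top in RPF. The day 5 cultures overlapped each other in RNA but not in RPF.

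Slc27a1, or FATP1, a transport protein for long-chain fatty acids, lies on the plus strand at chr8:71568882-71587302. Slc27a1 RPF stood, in RPKM, at 10.6 and 16.6 in brown day 0 and 69.0 and 68.2 in brown day 5, 15.9 and 19.8 in white day 0 and 203 and 235 in white day 5, 139 and 130.2 in BAT, and 300.4 and 333 in eWAT tissue. Slc27a1 RNA, also in RPKM, came to 10.6 and 9.65, 100.0 and 83.1, 15.5 and 13.3, 258 and 233, 133 and 179.8 and 331 and 295 in that order. Both assays gave the same order, eWAT, white day 5, BAT, brown day 5, white day 0 and brown day 0. The day 0 groups overlapped in RPF.

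Acsl1, the main long-chain acyl-CoA synthetase of adipocytes, lies on the plus strand at chr8:46471037-46536051. Acsl1 RPF stood, in RPKM, at 64.9 and 74.5 in brown day 0 and 804 and 829 in brown day 5, 103 and 88.0 in white day 0 and 1475 and 1397 in white day 5, 1164 and 1181 in BAT, and 488 and 566 in eWAT tissue. Acsl1 RNA, also in RPKM, came to 14.6 and 16.5, 507 and 539, 6.00 and 5.59, 824 and 855, 1027 and 975 and 378 and 369 in that order, with no overlap between groups in either assay. White exceeded brown in day 5 culture, and brown exceeded white in tissue.

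Cpt1a, the carnitine palmitoyltransferase 1 best known from liver and inhibited by malonyl-CoA, lies on the plus strand at chr19:3322334-3385733. Cpt1a RPF stood, in RPKM, at 26.7 and 21.8 in brown day 0 and 17.5 and 13.7 in brown day 5, 17.8 and 27.6 in white day 0 and 12.4 and 6.66 in white day 5, 17.8 and 20.7 in BAT, and 61.3 and 51.8 in eWAT tissue. Cpt1a RNA, also in RPKM, came to 25.2 and 25.5, 9.68 and 9.98, 25.2 and 25.8, 9.25 and 10.3, 9.16 and 10.7 and 42.5 and 39.0 in that order. It was highest in eWAT in both assays. White day 0 overlapped brown day 0 and BAT in RPF, and in RNA the day 0 groups overlapped each other while the day 5 cultures and BAT overlapped at the bottom.

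Slc25a20, the carnitine-acylcarnitine translocase of the inner mitochondrial membrane, lies on the plus strand at chr9:108662088-108684641. Slc25a20 RPF stood, in RPKM, at 31.9 and 40.7 in brown day 0 and 299 and 349 in brown day 5, 48.4 and 62.6 in white day 0 and 299 and 282 in white day 5, 698 and 705 in BAT, and 93.9 and 93.1 in eWAT tissue. Slc25a20 RNA, also in RPKM, came to 25.0 and 27.3, 226 and 217, 25.8 and 24.8, 211 and 234, 557 and 540.2 and 58.1 and 65.8 in that order. BAT was highest, and the cultures of both lineages overlapped in RNA at each day.

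Cpt2, the inner membrane transferase that completes the shuttle, lies on the minus strand at chr4:107903981-107923610. Cpt2 RPF stood, in RPKM, at 37.6 and 34.9 in brown day 0 and 265 and 237 in brown day 5, 62.6 and 45.3 in white day 0 and 223 and 227 in white day 5, 409.9 and 408 in BAT, and 68.9 and 79.0 in eWAT tissue. Cpt2 RNA, also in RPKM, came to 31.7 and 31.6, 195 and 194, 40.9 and 39.8, 185 and 192, 471 and 450.3 and 98.7 and 98.3 in that order. The order of the groups was the same in both assays, with BAT highest and the day 5 cultures next to each other.

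Crat, the carnitine acetyltransferase that links acetyl-CoA and carnitine, lies on the minus strand at chr2:30400471-30415813. Crat RPF stood, in RPKM, at 48.3 and 56.3 in brown day 0 and 333 and 317 in brown day 5, 23.3 and 51.5 in white day 0 and 283 and 262 in white day 5, 341 and 336 in BAT, and 108 and 108 in eWAT tissue. Crat RNA, also in RPKM, came to 24.8 and 28.4, 284 and 298, 21.8 and 22.5, 353 and 365, 563 and 609 and 160.1 and 145 in that order. BAT was highest in both assays, narrowly so in RPF, and the day 0 groups overlapped in RPF.

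During adipogenesis, 9 of the 10 genes rose in both lineages in RPF and in RNA. Cpt1a RNA fell in both lineages, and Cpt1a RPF fell in white cells. The largest increases in RNA were those of Fabp4, Cd36 and Acsl1. Fabp4 RNA rose 133-fold in brown cells and 307-fold in white cells, and Cd36 RNA rose 157-fold and 296-fold. The shuttle genes Slc25a20, Cpt2 and Crat rose less, by log2 differences of 3.08, 2.62 and 3.45 in brown RNA and 3.14, 2.22 and 4.02 in white RNA. Cpt1a RNA fell by 1.37 ± 0.12 (adjusted p = 1.62e-07) in brown cells and by 1.38 ± 0.12 (adjusted p = 1.54e-07) in white cells.

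In brown RPF, 9 genes passed as higher and 0 as lower, while 26.0% and 34.7% of all genes passed in these directions. The median difference was 2.98 over the 10 genes and -0.16 over all genes. In white RPF, 9 passed as higher and 1 as lower, against 16.7% and 36.1% of all genes, with medians of 2.90 and -0.38. In RNA, 9 passed as higher and 1 as lower in each lineage, against 29.7% and 44.9% of all genes in brown cells and 27.5% and 53.4% in white cells. The RNA medians were 3.31 against -0.20 in brown and 3.90 against -0.37 in white cells. The medians of all genes were below 0, and median-of-ratios scaling brought them to -0.01 and -0.07 in RNA. Under that scaling 1155 and 1171 of all genes passed as higher and lower in white RPF in place of 843 and 1816, 1850 and 1834 in brown RNA in place of 1495 and 2262, and 1840 and 2045 in white RNA in place of 1387 and 2690. The same counts of the 10 genes passed in each direction under it in these 4 comparisons.

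Single RPF differences ran from 5.11 ± 0.08 (adjusted p = 9.51e-14) for Fabp4 to 1.84 ± 0.08 (adjusted p = 2.36e-10) for Lpl among the genes that rose in brown cells. In white cells the largest was that of Acsl1, at 3.91 ± 0.13 (adjusted p = 1.05e-10), and the smallest that of Lpl, at 1.79 ± 0.08 (adjusted p = 8.20e-10). Fabp5 rose by 3.91 in the brown and 2.84 in the white lineage, and Cd36 by 4.71 and 3.48. Slc27a1 rose more in white cells, with 2.37 in brown and 3.62 in white. Cpt1a RPF fell by 1.29 ± 0.32 (adjusted p = 0.00467) in white cells, where it did not pass without white day 0 replicate 2 (-0.97) or white day 5 replicate 2 (-0.84). In brown cells its RPF difference was -0.64 ± 0.32 (adjusted p = 0.105) and did not pass.

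Before induction, the lineages differed in opposite directions in the 2 assays for the most strongly induced genes. Fabp4, Cd36 and Acsl1 RNA was higher in brown preadipocytes, by 1.54 ± 0.11 (adjusted p = 9.88e-07), 1.65 ± 0.12 (adjusted p = 2.77e-06) and 1.42 ± 0.09 (adjusted p = 3.75e-07). Their RPF was higher in white preadipocytes, with brown minus white differences of -1.66 ± 0.08 (adjusted p = 4.76e-08), -1.43 ± 0.23 (adjusted p = 5.14e-04) and -0.45 ± 0.13 (adjusted p = 0.0146). In RPF, 0 genes passed as higher in brown and 7 as higher in white, against 12.4% and 24.9% of all genes. In RNA, 3 and 1 passed, against 2.9% and 0.854%. The other 4 genes higher in white RPF were Fabp5 (-0.95), Lpl (-0.82), Slc25a20 (-0.61) and Cpt2 (-0.56), and Cpt2 was also the gene higher in white RNA (-0.35 ± 0.08, adjusted p = 0.0225). In RPF, Slc25a20 did not pass without brown day 0 replicate 1 (-0.44) or white day 0 replicate 2 (-0.43), Cpt2 without brown day 0 replicate 2 (-0.50) or white day 0 replicate 1 (-0.32), and Acsl1 without brown day 0 replicate 1 (-0.35) or white day 0 replicate 1 (-0.34). Cd36 RPF passed without brown day 0 replicate 1 but moved to -0.90. Cpt2 RNA did not pass in any of the 4 fits with a library left out, at -0.37 to -0.33. The median over the 10 genes was -0.58 in RPF against -0.18 over all genes, and 0.02 against 0.01 in RNA.

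The day 0 RPF results depended on scaling and on what was taken as day 0 signal. With median-of-ratios scaling, Slc25a20, Cpt2 and Acsl1 no longer passed in RPF, Crat passed as higher in brown at 0.74, and 807 and 885 of all genes passed as higher and lower in place of 626 and 1252. With quantile scaling the RNA calls of all genes were 189 and 132 in place of 146 and 43, and 3 of the 10 genes passed in each direction. In white cells, day 0 Fabp4 stood at 10.1% of day 5 in RPF and 0.326% in RNA, Cd36 at 8.98% and 0.339%, and Acsl1 at 6.65% and 0.690%. In brown cells the same shares were 2.90% and 0.750%, 4.07% and 0.638%, and 8.53% and 2.97%. Lpl differed little between assays, at 28.8% and 24.6% in white cells. Over the 50 other genes with the largest RNA rise in white cells, the median share was 10.5% in RPF and 2.58% in RNA, and in brown cells 5.30% and 3.35%. The macrophage marker Lyz2 had a day 0 RPF RPKM of 41.3 to 74.0 in brown and 205 to 254 in white. The RPF sum of 5 preadipocyte and fibroblast markers was 18362 to 18647 in brown and 9711 to 9994 in white day 0. Of these 5, Thy1 (141 to 178 and 494 to 523) and Pdgfra (169 to 198 and 245 to 295) were higher in white. The summed RPKM of 6 adipocyte markers in white day 0 was 377 to 378 in RPF and 26.6 to 30.5 in RNA. In brown day 0 it was 779 to 976 and 152 to 159. Cfd made up much of the brown RPF sum, at 477 to 496 against 37.5 to 43.0 in white day 0. Adipoq, at 172 to 272 and 149 to 159.9, and Plin4, at 30.4 to 44.8 and 25.2 to 30.0, were also higher in brown. Lipe, at 17.1 to 30.6 and 40.7 to 46.3, was higher in white. Plin1, at 42.5 to 104 and 74.7 to 75.3, and Pparg, at 29.0 to 40.5 and 33.3 to 39.7, overlapped. The part of these values in the day 0 results was not tested beyond subtracting 8.0% (white) and 2.39% (brown) of the day 5 RPF from day 0, with a floor at 10% of the day 0 value, which ended the call of Cd36 (-0.38) and left Fabp4 at -2.01 in RPF. The floor held both white libraries of Acsl1, 1 white library each of Cd36, Slc27a1 and Crat, and 1 brown library each of Fabp4 and Cd36, so it set the subtracted values of Acsl1 and in part those of the others.

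**Figure D2:**
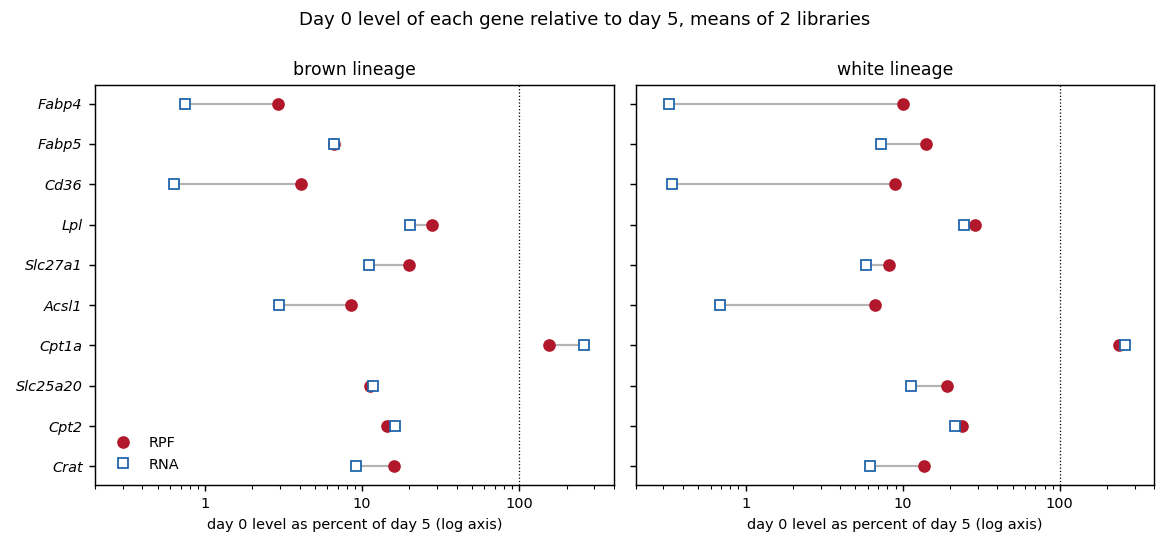
Day 0 level of each gene as a percentage of its day 5 level, on a log axis, from the means of 2 libraries, for RPF (filled circles) and RNA (open squares), with grey lines joining the assays and a dotted line at equal levels. In white cells Fabp4, Cd36 and Acsl1 lie between 6.65 and 10.1% in RPF and between 0.326 and 0.690% in RNA, while Cpt1a lies beyond the dotted line.

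At day 5, the lineages were close for most of these genes in RPF. No gene passed as higher in brown adipocytes and 3 passed as higher in white, namely Slc27a1 (-1.67 ± 0.22, adjusted p = 3.50e-04), Acsl1 (-0.81 ± 0.13, adjusted p = 0.00125) and Lpl (-0.77 ± 0.08, adjusted p = 3.60e-05). Of all genes, 5.48% and 8.26% passed as higher and lower in brown, and the medians were 0.13 for the 10 genes and 0.08 for all. With quantile scaling 118 and 356 of all genes passed in RPF in place of 276 and 416. The cultures also differed in marker levels, with summed RPF RPKM in brown and white day 5 of 1333 to 1376 and 3796 to 4009 for 5 preadipocyte and fibroblast markers and 4091 to 4216 and 6081 to 6091 for 6 adipocyte markers, and with 37.9 to 43.2 and 231 to 240.5 for the macrophage marker Lyz2. These sums and Lyz2 were higher in white, as were Slc27a1, Acsl1 and Lpl. Of the adipocyte markers, Cfd stood at 310 to 350 in brown and 1116 to 1263.5 in white, and Adipoq at 1530 to 1711 and 2504 to 2759. Plin1 and Plin4 were also higher in white. Pparg, at 411 to 422 and 267 to 269, and Lipe, at 504 to 548 and 447 to 487, were higher in brown. Thy1, a fibroblast marker, overlapped, at 16.6 to 26.5 and 10.2 to 26.4. The part of the markers in the day 5 differences was not tested. In RNA, Slc27a1 (-1.43), Acsl1 (-0.68), Fabp5 (-0.40) and Crat (-0.30) were higher in white and Cd36 (0.73) and Fabp4 (0.34) in brown adipocytes, 2 and 4 genes against 32.0% and 19.9% of all. Of these, Cd36, Slc27a1 and Acsl1 passed in every alternative, whereas Fabp4 did not pass with median-of-ratios scaling (0.22) or without brown day 5 replicate 2 (0.29), white day 5 replicate 1 (0.31) or white day 5 replicate 2 (0.36), nor Crat without brown day 5 replicate 1 (-0.27), white day 5 replicate 1 (-0.33) or white day 5 replicate 2 (-0.28), and Fabp5 passed in 0 of 4 fits with a library left out, at -0.49 to -0.32. Median-of-ratios scaling gave 1269 and 1414 of all genes in place of 1613 and 1001. Slc25a20, Cpt2 and Cpt1a did not pass in RNA, with differences of -0.0046 ± 0.09, 0.04 ± 0.08 and 0.01 ± 0.12.

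The change from day 0 to day 5 differed between lineages for several genes. In RNA, the increase was smaller in brown than in white cells for Acsl1 (-2.11 ± 0.13, adjusted p = 2.15e-07), Fabp4 (-1.20 ± 0.15, adjusted p = 1.25e-04), Slc27a1 (-0.92 ± 0.21, adjusted p = 0.00456), Cd36 (-0.92 ± 0.18, adjusted p = 0.0021) and Crat (-0.57 ± 0.13, adjusted p = 0.00597) and larger for Cpt2 (0.40 ± 0.11, adjusted p = 0.0147). In RPF it was larger in brown cells for Fabp4 (1.80 ± 0.11, adjusted p = 8.95e-07), Cd36 (1.23), Fabp5 (1.07), Slc25a20 (0.77) and Cpt2 (0.71) and smaller for Slc27a1 (-1.25 ± 0.31, adjusted p = 0.00889). Fabp4 and Cd36 thus passed in opposite directions in RPF and RNA, and Slc27a1 in the same direction. The counts were 5 and 1 in RPF and 1 and 5 in RNA, against 20.0% and 11.3% of all genes in RPF and 21.6% and 13.7% in RNA. In RPF, Fabp4 and Slc27a1 passed in every alternative, and Slc25a20 and Cpt2 passed in 3 of 9 other settings each. Slc25a20 did not pass without brown day 0 replicate 1 (0.59), brown day 5 replicate 2 (0.66), white day 0 replicate 2 (0.58), white day 5 replicate 1 (0.81) or white day 5 replicate 2 (0.72), and Cpt2 RPF passed in 2 of 8 fits with a library left out, at 0.48 to 0.95, those without brown day 0 replicate 1 (0.77) and white day 0 replicate 2 (0.95). Cd36 RPF moved to 0.71 without brown day 0 replicate 1, and did not pass with quantile scaling (0.73) or after the day 0 subtraction (0.19), nor did Fabp5 after the latter (0.48). Cpt2 RNA did not pass without white day 0 replicate 1 (0.38) or white day 5 replicate 1 (0.37) or with median-of-ratios scaling (0.28). With median-of-ratios scaling, 708 and 718 of all genes passed in RPF in place of 1005 and 568, and 822 and 955 in RNA in place of 1086 and 689.

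Between the tissues, 4 of the 10 genes were higher in BAT and the others lay higher in eWAT. The mitochondrial shuttle genes Slc25a20, Cpt2 and Crat and the synthetase Acsl1 were higher in BAT. Slc25a20 was 7.50-fold higher in RPF and 8.87-fold in RNA, Cpt2 5.54-fold and 4.67-fold, Crat 3.13-fold and 3.84-fold, and Acsl1 2.23-fold and 2.68-fold. The genes of uptake were higher in eWAT, Lpl by 3.00-fold in RPF and 2.53-fold in RNA, Slc27a1 by 2.36-fold and 2.02-fold, and Cd36 by 2.13-fold and 1.91-fold. Cpt1a, a carnitine palmitoyltransferase 1 of the outer membrane, was also higher in eWAT, by 2.93-fold in RPF and 4.12-fold in RNA. Its RNA stood at the 14.7 percentile of all genes in BAT. Cpt1b was not analysed here, so the outer membrane step as a whole was not compared.

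The limma differences of BAT minus eWAT in RPF were 2.91 ± 0.17 (adjusted p = 3.46e-08) for Slc25a20, 2.47 ± 0.18 (adjusted p = 1.71e-07) for Cpt2, 1.65 ± 0.27 (adjusted p = 3.11e-04) for Crat and 1.16 ± 0.13 (adjusted p = 1.12e-05) for Acsl1. They were -1.58 ± 0.08 (adjusted p = 5.63e-09) for Lpl, -1.55 ± 0.32 (adjusted p = 0.00199) for Cpt1a, -1.24 ± 0.22 (adjusted p = 5.94e-04) for Slc27a1 and -1.09 ± 0.23 (adjusted p = 0.00226) for Cd36. The carriers were higher in eWAT in RPF, Fabp5 at -0.77 ± 0.11 (adjusted p = 1.28e-04) and Fabp4 at -0.73 ± 0.08 (adjusted p = 9.36e-06), whereas in RNA Fabp5 came to -0.60 ± 0.15 (adjusted p = 0.00274) and Fabp4, at -0.11 ± 0.11 (adjusted p = 0.392), did not pass. Fabp5 RNA did not pass with median-of-ratios scaling (-0.34) and moved to -0.31 without eWAT replicate 2. With quantile scaling Acsl1 still passed but moved to 0.41 in RPF (adjusted p = 0.0392) and 0.96 in RNA, and Fabp5 RPF moved to -1.30. Fabp4 RPF was set to a difference of 0 by quantile scaling and did not pass. The counts were 4 higher and 6 lower in BAT in RPF, and 4 and 5 in RNA, against 11.6% and 28.1% of all genes in RPF and 19.1% and 50.2% in RNA. The medians of all genes were -0.31 and -0.30, and median-of-ratios scaling gave 870 and 824 genes in RPF in place of 586 and 1416, and 1472 and 1716 in RNA in place of 960 and 2526.

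Fewer cells of a type and less RNA per cell cannot be told apart in these bulk tissues. The summed RPF RPKM of the 6 of 7 adipocyte markers with values in all libraries was 10095 to 11325 in BAT and 37665 to 40167 in eWAT. Cfd made up most of the eWAT sum, at 27125 to 30605 against 5140.0 to 6305 in BAT. Adipoq stood at 5901 to 6605.5 in eWAT and 2329 to 2544 in BAT, and Plin4 at 1065 to 1125 and 367 to 369.6. Lipe stood at 793 to 931 in eWAT and 728 to 788 in BAT, and Plin1 at 1565 to 1747 and 1170.2 to 1262. Pparg went in the other direction, at 179 to 192 and 206 to 209.6. Of 8 macrophage markers only Lyz2 had values in all libraries, with an RPF RPKM of 682 to 693 in BAT and 1431 to 1874 in eWAT. Of 6 preadipocyte and fibroblast markers 5 did, with sums of 2216 to 2363 and 3036 to 3499.6. These sums and Lyz2 were higher in eWAT, in the direction of the uptake genes and Cpt1a, and their part in those results was not tested. Of 10 brown adipocyte markers only Ebf2, a transcription factor of the brown lineage, had values throughout, at 35.7 to 36.8 RPKM in BAT and 20.6 to 28.8 in eWAT RPF, and Ucp1 was not analysed here, so the label of BAT was checked on Ebf2 alone. The endothelial, muscle and blood markers had none with values throughout and were not analysed here.

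The difference of brown and white seen in tissue was not the one seen in day 5 culture. In RPF the tissue difference exceeded that of the cultures by 2.75 ± 0.24 (adjusted p = 6.23e-06) for Slc25a20, 2.31 ± 0.25 (adjusted p = 2.38e-05) for Cpt2, 1.97 ± 0.18 (adjusted p = 7.45e-06) for Acsl1 and 1.39 ± 0.38 (adjusted p = 0.0201) for Crat. Acsl1 turned from higher in white cultures to higher in BAT, passing in both. Cpt1a went the other way, by -2.32 ± 0.46 (adjusted p = 0.00308), as did Fabp5 (-0.89), Fabp4 (-0.87) and Lpl (-0.81). Cd36 RPF did not pass (-0.89 ± 0.33, adjusted p = 0.0699) and did so with the replicate block (-0.89). In RNA the genes that passed as higher were Slc25a20 (3.15), Crat (2.25), Cpt2 (2.18) and Acsl1 (2.10), and as lower Cpt1a (-2.05), Cd36 (-1.67), Lpl (-1.50) and Fabp4 (-0.44). Slc27a1, higher in white in both settings, did not pass in RPF (0.44 ± 0.31, adjusted p = 0.345) or in RNA (0.41 ± 0.21, adjusted p = 0.0937).

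The counts of this comparison were 4 and 4 in RPF, against 7.45% and 13.9% of all genes, and 4 and 4 in RNA, against 14.5% and 51.3%. The medians were -0.19 over the 10 genes and -0.31 over all genes in RPF, and 0.11 and -0.45 in RNA. Of all genes, 551 and 327 passed under median-of-ratios scaling in RPF in place of 375 and 701, and 1295 and 1529 in RNA in place of 729 and 2583. In RPF, Slc25a20, Cpt2, Acsl1, Cpt1a and Fabp5 passed in every alternative, while Crat passed in 1 of 8 fits with a library left out, that without white day 5 replicate 2 (1.45), at values of 1.34 to 1.45. Lpl RPF (-0.19) and Fabp4 RPF (set to 0) did not pass with quantile scaling. Fabp4 RNA did not pass without BAT replicate 2 (-0.32), brown day 5 replicate 2 (-0.39), eWAT replicate 2 (-0.30) or white day 5 replicate 1 (-0.42) or with median-of-ratios scaling (-0.07), under which Slc27a1 RNA passed (0.79).

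**Figure D3:**
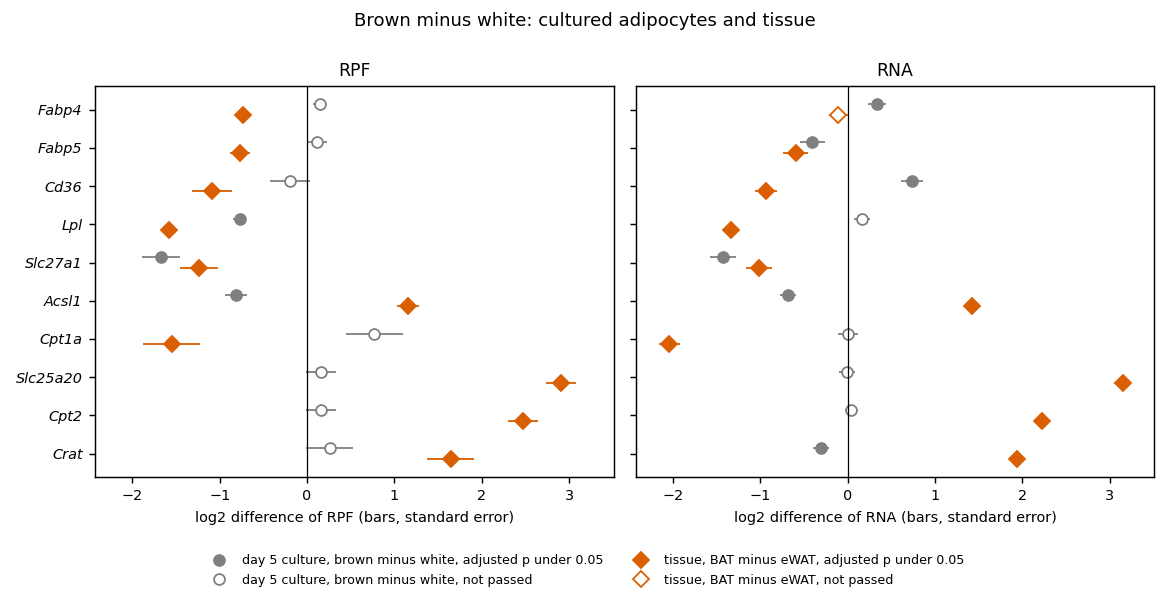
Log2 difference of brown minus white in day 5 cultures (grey circles) and in tissue (orange diamonds), for RPF on the left and RNA on the right, with bars for the SE and filled symbols for adjusted p under 0.05. Slc25a20, Cpt2 and Crat lie between -0.30 and 0.26 in culture and between 1.65 and 3.15 in tissue, and Acsl1 lies on opposite sides of 0.

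In the mature cells, the highest translational efficiency of the 10 genes was that of Lpl in white day 5 and both tissues and that of Fabp5 in brown day 5. Lpl had an Eff of 1.80 in brown day 5, 3.44 in white day 5, 2.05 in BAT and 2.43 in eWAT, against medians of 0.901, 0.976, 0.862 and 0.856 over all genes. Fabp5 had 2.87, 2.00, 1.50 and 1.67. Crat was the lowest of the 10 in white day 5, BAT and eWAT, at 0.758, 0.578 and 0.707, and Slc27a1 in brown day 5, at 0.749. Cpt2 lay at 1.29, 1.19, 0.888 and 0.751, and Slc25a20 at 1.47, 1.31, 1.28 and 1.51. These levels of Eff were not tested between genes.

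Eff fell from day 0 to day 5 for 6 of the 10 genes in each lineage, and no gene rose. In brown cells these were Cd36 (-2.58 ± 0.29, adjusted p = 2.53e-06), Fabp4 (-1.94), Acsl1 (-1.52), Crat (-0.81), Slc27a1 (-0.80) and Lpl (-0.46). In white cells they were Fabp4 (-4.95 ± 0.14, adjusted p = 8.99e-16), Cd36 (-4.73), Acsl1 (-3.27), Crat (-1.05), Fabp5 (-0.93) and Slc25a20 (-0.74). Of all genes, 16.1% and 19.9% passed as higher and lower in brown and 7.94% and 16.3% in white cells. Day 0 Eff in white preadipocytes reached 48.4 for Cd36, 34.7 for Fabp4 and 16.5 for Acsl1, against 6.13, 3.80 and 4.48 in brown preadipocytes. White day 0 RNA of Cd36 and Acsl1 stood at the 1.19 and 1.63 percentiles of all genes, and that of Fabp4 at the 78.8 percentile. High values were not particular to these genes. White day 0 Eff was 186 for Plin1, 79.0 for Adipoq, 14.1 for Cfd, 11.3 for Lipe, 5.34 for Plin4 and 2.55 for Pparg. Day 5 signal was also subtracted from day 0 RPF. Of the 10 genes, only Acsl1 (-1.04) and Lpl (-0.34) in brown cells and Fabp4 (-2.66) in white cells then still passed as lower. Fabp5 in brown cells (0.63) and Slc27a1 in white cells (2.75) passed as higher. The floor held 1 white library of Slc27a1. In brown cells, of the 6, only Acsl1 passed in every alternative, and in white cells only Fabp4. Slc27a1 in brown cells did not pass without brown day 0 RNA replicate 2 (-0.74), brown day 5 RNA replicate 1 (-0.67), brown day 0 RPF replicate 2 (-0.48), brown day 5 RPF replicate 1 (-0.81) or brown day 5 RPF replicate 2 (-0.80), and Crat passed only without brown day 0 RPF replicate 1 (-0.92), with a range of -0.92 to -0.70 over the 8 fits. In white cells Slc25a20 did not pass without white day 5 RNA replicate 2 (-0.66) or white day 0 RPF replicate 2 (-0.55), and Crat without white day 0 RNA replicate 1 (-1.02), white day 5 RNA replicate 2 (-1.02), white day 0 RPF replicate 2 (-0.47) or white day 5 RPF replicate 2 (-0.99), while without white day 0 RPF replicate 1 Crat moved to -1.62. With quantile scaling, 460 and 421 of all genes passed in white cells in place of 400 and 823.

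**Figure D4:**
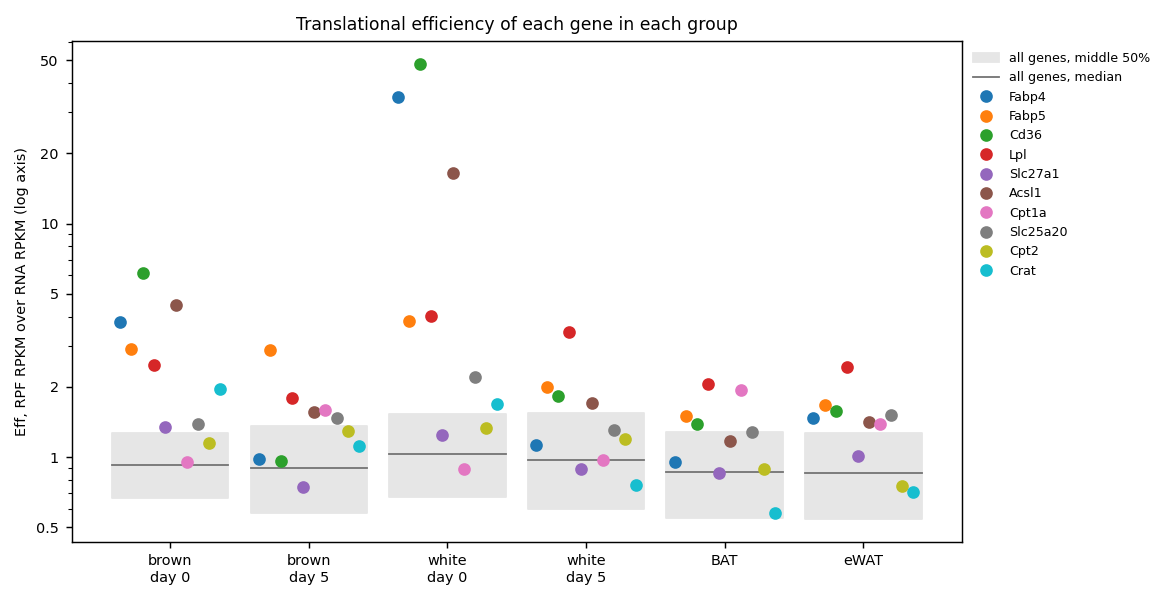
Eff of each gene in each group on a log axis, from group means of 2 libraries per assay, with grey boxes for the middle 50% of all 5035 genes and grey lines for their medians. Cd36, Fabp4 and Acsl1 stand at 48.4, 34.7 and 16.5 in white day 0 and between 0.954 and 1.83 at day 5 and in the tissues.

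Between lineages, Eff of 5 genes was lower in brown than in white preadipocytes and 0 was higher, against 22.2% and 10.9% of all genes. They were Fabp4 (-3.20 ± 0.14, adjusted p = 3.61e-12), Cd36 (-3.08), Acsl1 (-1.88), Lpl (-0.70) and Slc25a20 (-0.66), and Fabp4 and Lpl passed in every alternative. After the day 0 subtraction Cd36 (-2.03, adjusted p = 0.0792 by limma) and Slc25a20 (-0.21) did not pass, and Acsl1 came to 0.97, a value set by the floor. Slc25a20 did not pass with median-of-ratios scaling (-0.50) or without brown day 0 RNA replicate 2 (-0.60), white day 0 RNA replicate 2 (-0.63), brown day 0 RPF replicate 1 (-0.48) or white day 0 RPF replicate 2 (-0.47). With median-of-ratios scaling, 684 and 812 of all genes passed at day 0 in place of 550 and 1120, and 151 and 197 at day 5 in place of 113 and 260. At day 5 only Lpl passed, lower in brown at -0.94 ± 0.12 (adjusted p = 2.59e-04), against 5.16% of all genes lower and 2.24% higher, and it passed in every alternative. The change from day 0 to day 5 was more negative in white cells for Fabp4 (3.01 ± 0.20, adjusted p = 6.80e-09), Cd36 (2.15), Acsl1 (1.75) and Fabp5 (0.92), 4 genes against 9.79% of all, with 0 against 5.78% the other way. Of these, after the subtraction only Fabp4 passed in the same direction (3.35), with Cd36 at 1.10 (adjusted p = 0.581), Fabp5 at 0.33 and Acsl1, set by the floor, at -1.10. The floor also held 1 brown day 0 library of Fabp4, and 1 brown and 1 white of Cd36. It thus set the subtracted values of these 2 genes in part. Fabp5 did not pass with median-of-ratios scaling (0.83) or without brown day 0 RNA replicate 2 (0.85), brown day 5 RNA replicate 1 (0.89), brown day 5 RNA replicate 2 (0.95), white day 0 RNA replicate 2 (0.83), white day 5 RNA replicate 2 (0.84), brown day 5 RPF replicate 1 (0.93), brown day 5 RPF replicate 2 (0.91), white day 0 RPF replicate 1 (0.90) or white day 5 RPF replicate 1 (0.84). With quantile scaling, 266 and 274 of all genes passed in this comparison in place of 493 and 291. In the tissues Fabp4 was lower in BAT (-0.62 ± 0.14, adjusted p = 0.0123), the only gene to pass, against 0.933% of all genes lower and 3.12% higher, and it did not pass with the replicate block, with quantile scaling, without the trend, with the tissue libraries alone, or without BAT RNA replicate 1 (-0.50) or eWAT RNA replicate 1 (-0.48). For the tissue difference less that of the cultures, Lpl passed as higher (0.69 ± 0.17, adjusted p = 0.0253), against 3.3% of all genes higher and 0.914% lower, and did not pass without BAT RNA replicate 2 (0.65), brown day 5 RNA replicate 2 (0.61), eWAT RNA replicate 1 (0.62), white day 5 RNA replicate 2 (0.61), BAT RPF replicate 2 (0.65), brown day 5 RPF replicate 1 (0.64) or eWAT RPF replicate 1 (0.59).

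Around these genes, a wider list of fatty acid uptake, activation, carnitine metabolism and their control was counted. Many of its genes, among them Cpt1b, Gpihbp1, Ppara and Ppargc1a, lacked a value in some library and were left out. The 26 that had values in all libraries therefore cover only a part of the list. Of the 26, 20 increased and 2 decreased at the RNA level when brown cells matured, and 18 and 5 when white cells did. Of all genes, 29.7% and 44.9% did so in brown and 27.5% and 53.4% in white cells. Their medians were 1.11 and 0.93, beside -0.20 and -0.37 over all genes. In RPF the counts were 19 and 2 in brown, against 26.0% and 34.7% of all genes, and 15 and 3 in white cells, against 16.7% and 36.1%. Angptl4, a secreted inhibitor of lipoprotein lipase, rose by 4.43 ± 0.08 (adjusted p = 9.69e-14) and 4.89 ± 0.08 (adjusted p = 2.81e-14) in brown and white RNA. Acaca, the acetyl-CoA carboxylase that makes malonyl-CoA, rose by 3.47 and 3.89, in the opposite direction to Cpt1a. Dbi, the acyl-CoA binding protein, rose by 3.54 and 3.44, and Pparg, the nuclear receptor that drives adipogenesis, by 4.11 and 3.83.

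In BAT against eWAT, 16 of the 26 were higher and 6 lower in RNA, and 13 and 3 in RPF, where 19.1% and 50.2% of all genes passed in RNA and 11.6% and 28.1% in RPF. Acsl5, another long-chain acyl-CoA synthetase, was higher in BAT by 3.59 ± 0.24 (adjusted p = 1.07e-07) in RPF and 2.90 in RNA. Acsl5 RPF was 154 and 164 in BAT RPKM against 11.8 and 14.8 in eWAT tissue; the day 5 cultures had 18.8 and 22.3 in brown and 27.4 and 27.6 in white, where the difference did not pass in RPF (-0.43 ± 0.24, adjusted p = 0.28). Acot13, an acyl-CoA thioesterase, was higher in BAT by 2.28 ± 0.19 (adjusted p = 9.93e-07) in RPF. Angptl4, Scarb1 and Acot7 were the 3 genes lower in BAT in RPF, at -0.80, -1.26 and -0.83. In Eff, 0 of the 26 passed between the tissues. Of the same genes, 7 stood above and 2 below white in the RPF of brown day 5 cultures, against 5.48% and 8.26% of all genes, and at day 0 1 and 7, against 12.4% and 24.9%.

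For each gene, the gene with the most similar profile over the 12 libraries of an assay was found by Pearson r of log2 RPKM. The search covered the 5035 genes less the 10 members. The 12 libraries are pairs from 6 groups, so r mainly compares group levels. For Slc25a20 it was Dlst in RNA (r = 0.996) and Hadhb in RPF (0.997), and for Cpt2 Ogdh (0.997) and Atp5a1 (0.994). For Fabp4 and Cd36 it was Cdo1 in RNA (0.999 and 0.994), and Fah (0.998) and Aplp2 (0.987) in RPF. For Acsl1 it was Pnpla2 in RNA (0.993) and for Crat Mfn2 (0.996). The profile of Cpt1a was nearest to that of Nav1 in RNA (0.981) and Tmem43 in RPF (0.915), the lowest r among the 10 genes. Among the 10 genes themselves, r in RNA was highest for Fabp4 with Cd36 (0.993) and for Slc25a20 with Cpt2 (0.987). Cpt1a had a negative r with each of the other 9 genes in RNA, from -0.82 with Slc25a20 to -0.24 with Lpl.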

How the data were processed

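RPF and RNA libraries were made from cultures and tissues. The submitters' processing notes name cutadapt 1.8.3, TopHat2 2.0.9 and Bowtie 1.0.0; by the methods, reads were placed on the top isoform of a gene, without mismatches and at 1 site each. The authors deposited RPKM over coding sequence; the genome build is not given in the sources used here, and coordinates are those of GENCODE M21 (GRCm38).

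Only the 5035 genes measured in each of the 24 libraries entered the fits, on the authors' scaling. Log2 RPKM without a pseudocount was fitted with limma 3.58.1 in R 4.3.3 (trend in the prior variance), over 12 libraries for RPF and 12 for RNA, and for Eff over all 24 with an assay by group term, with Benjamini-Hochberg adjustment over all genes. To find depth, RPKM was turned back into reads by coding length: 4769 of 4841 genes with a single length came out whole throughout (tolerance 0.05 reads), as did 98.57 to 98.88% of each library's values.

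The genes named are the 10 members, related genes with values in all libraries, and the most similar gene to each member. The members and lists were chosen with earlier results of these data known. The day 0 subtraction removed a fixed share of the day 5 RPF level, the median excess of the RPF over the RNA day 0 share among the 50 other genes with the largest RNA rise, with a floor at 10% of the day 0 value. Alternatives were a pseudocount of 1 RPKM, a mean RPKM of at least 5, median-of-ratios and quantile scaling, a replicate block, no trend, the groups of a comparison alone, voom on recovered reads, the subtraction, and each library left out. Only the RPF fit of brown day 5 against day 0 was run on simulated reads, with a common base level for all groups and a fixed dispersion. The RNA, Eff and other comparisons were not tested in this way. Python 3.11.15, pandas 2.3.3, numpy 2.4.6 and matplotlib 3.10.9 were used.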

Additional observations from a re-analysis of the deposited data

Results flagged for a closer look

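Each of the following was singled out because the effect of a contrast differed between groups by limma's interaction term at an adjusted p under 0.05. In RPF, the change from day 0 to day 5 differed between brown and white cells for 6 of the 10 genes, with log2 values of 1.80 for Fabp4, 1.07 for Fabp5, -1.25 for Slc27a1, 0.77 for Slc25a20, 1.23 for Cd36 and 0.71 for Cpt2. In RPF, the difference of brown and white in tissue departed from that in day 5 culture for 8 of the 10 genes, with log2 values of -0.87 for Fabp4, -0.89 for Fabp5, -0.81 for Lpl, 2.75 for Slc25a20, 1.39 for Crat, 2.31 for Cpt2, 1.97 for Acsl1 and -2.32 for Cpt1a. In RNA, the change from day 0 to day 5 differed between brown and white cells for 6 of the 10 genes, with log2 values of -1.20 for Fabp4, -0.92 for Slc27a1, -0.57 for Crat, -0.92 for Cd36, 0.40 for Cpt2 and -2.11 for Acsl1. In RNA, the difference of brown and white in tissue departed from that in day 5 culture for 8 of the 10 genes, with log2 values of -0.44 for Fabp4, -1.50 for Lpl, 3.15 for Slc25a20, 2.25 for Crat, -1.67 for Cd36, 2.18 for Cpt2, 2.10 for Acsl1 and -2.05 for Cpt1a. In Eff, the change from day 0 to day 5 differed between brown and white cells for 4 of the 10 genes, with log2 values of 3.01 for Fabp4, 0.92 for Fabp5, 2.15 for Cd36 and 1.75 for Acsl1. In Eff, the difference of brown and white in tissue departed from that in day 5 culture for 1 of the 10 genes, with a log2 value of 0.69 for Lpl. For the change from day 0 to day 5, a value above 0 means that the signed brown change lay above the white one. For the tissues, it means that the signed brown minus white difference lay above that of the cultures. Of all genes, the change passed above and below 0 for 20.0% and 11.3% in RPF. The shares were 21.6% and 13.7% in RNA and 9.79% and 5.78% in Eff. For the tissues they were 7.45% and 13.9% in RPF, 14.5% and 51.3% in RNA, and 3.3% and 0.914% in Eff. In RNA for the tissues, most of all genes thus passed as well. Groups of 2 libraries are too small to look for single libraries that stand apart.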

How the results depend on the processing

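Of 210 differences of the 10 genes (7 comparisons in RPF, RNA and Eff), 130 passed, and 92 of these passed in the same direction in every alternative. Of the 3200 alternative values, 1287 passed neither there nor as reported, and 69 of these changed sign. The counts of genes passing moved as follows. In RPF they went from 7 to 4 for brown against white day 0 with the compared groups alone and with voom, from 3 to 5 at day 5 with voom, and from 6 to 3 for the lineage difference in change after the day 0 subtraction. In Eff they went from 6 to 3 in brown cells with the replicate block and after the subtraction, from 6 to 2 in white cells after it, from 1 to 2 at day 5 with quantile scaling, and from 1 to 4 there with the compared groups alone and with voom. For BAT against eWAT, Eff went from 1 to 0 with quantile scaling, the block, no trend and the tissues alone. For tissue less culture it went from 1 to 0 with the block and no trend, to 2 with the compared groups alone, and to 3 with voom. The cause was not tested. After the day 0 subtraction the brown against white day 0 differences of Slc27a1 and Acsl1 RPF turned to 2.61 and 2.39. The floor of 10% of the day 0 value held 2 white libraries of Acsl1 and 1 each of Slc27a1 and Crat, and 1 brown library of Fabp4, and so set in whole or in part the values of these genes here and below. The Eff changes turned to 0.70 for Fabp4 and 0.63 for Fabp5 in brown cells, and to 0.29 for Fabp5, 2.75 for Slc27a1, 0.0697 for Slc25a20, 1.01 for Crat and 0.0562 for Acsl1 in white cells. Acsl1 Eff turned to 0.97 between lineages at day 0 and to -1.10 in the difference of changes.

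With 1 library left out, the RPF counts were 9 for brown D5 against D0, 9 to 10 for white D5 against D0, 5 to 7 for day 0 lineages, 3 to 4 for day 5 lineages, 4 to 6 for the difference of changes, 10 for the tissues and 7 to 8 for tissue less culture. The RNA counts were 10 for brown D5 against D0, 10 for white D5 against D0, 3 for day 0 lineages, 3 to 4 for day 5 lineages, 5 to 6 for the difference of changes, 9 for the tissues and 7 to 9 for tissue less culture. The Eff counts were 4 to 6 for brown D5 against D0, 4 to 6 for white D5 against D0, 4 to 5 for day 0 lineages, 1 to 2 for day 5 lineages, 3 to 5 for the difference of changes, 0 to 1 for the tissues and 0 to 2 for tissue less culture. Deviations of libraries with the same replicate number correlated at -0.228 to 0.183 over 16 pairs, 0.183 being BAT with eWAT in RNA. The pairs were of groups within an assay or of RPF with RNA within a group. The number was not taken as a pairing. With the replicate block, Cd36 RPF for tissue less culture (-0.89) and Fabp5 RNA at day 0 (-0.55) were added, and in Eff the calls of Slc27a1, Lpl and Crat in brown cells, of Fabp4 between tissues and of Lpl for tissue less culture were lost. Quantile scaling sets Fabp4 to 0 difference between groups where it has the highest level in every library. Fabp4 therefore could not pass under it in comparisons among such groups. The lowest RPF values rest on 5 to 8 reads, and depth limits them.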

Other observations

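The other long-chain acyl-CoA synthetases, which activate fatty acids as Acsl1 does, gave the following values. Acsl5 RPF fell in brown cells by 0.93 ± 0.24 (adjusted p = 0.00485) and did not pass in white cells (0.25 ± 0.24, adjusted p = 0.402). Between brown and white, the tissue difference of Acsl5 exceeded that of the day 5 cultures by 4.01 ± 0.34 (adjusted p = 5.14e-06) in RPF and 3.28 ± 0.17 (adjusted p = 9.67e-09) in RNA. For Acsl3 the same values were 1.38 and 1.52, and both passed. Acsl4 RNA fell by 1.35 ± 0.12 (adjusted p = 3.73e-07) in white cells, was higher in brown than in white day 5 cultures by 1.28, and was lower in BAT than in eWAT by a difference of -0.31 ± 0.12 (adjusted p = 0.0423). Acsl4 RPF rose in brown cells (0.91), where its RNA did not pass (-0.22), and fell in white cells (-0.56). These values were compared within each gene only.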
